A study of Mus musculus with 9 samples.

Results

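Prostaglandins are lipid mediators that cells make from arachidonic acid. Cytosolic phospholipase A2, encoded by Pla2g4a, releases the fatty acid from membranes, the cyclooxygenases COX-1 and COX-2 (Ptgs1 and Ptgs2) turn it into prostaglandin H2, and terminal synthases convert that into prostaglandin E2 (Ptges), prostacyclin (Ptgis) or prostaglandin D2 (Ptgds). 15-hydroxyprostaglandin dehydrogenase (Hpgd) inactivates prostaglandin E2, and its signal is received by the G protein-coupled receptors EP2, EP3 and EP4 (Ptger2, Ptger3 and Ptger4). In the inflamed joint prostaglandin E2 is known as a mediator of pain and swelling, and COX-2 is the cyclooxygenase that inflammatory cytokines induce. These 10 genes were taken by symbol from the 49548 genes of the tables, and all 10 were found.

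RNA was sequenced from cultured ankle synovial fibroblasts (SFs), the cells that form the soft lining of the joint. There were 3 libraries of SFs from WT mice, 3 of SFs from untreated hTNFtg mice and 3 of hTNFtg SFs treated for 48 h with infliximab at 1 µg/mL. hTNFtg mice carry a human TNF transgene and develop destructive polyarthritis, and infliximab is an antibody against human TNF. The mice were 8 weeks old on a mixed CBA and C57BL/6J background, and CD45+ cells had been depleted from the cultures at passage 1. The labels give the WT and untreated hTNFtg SFs no treatment, whereas the methods describe vehicle. The methods speak of biological replicates without saying whether each came from its own mouse, so p-values measure the spread between these cultures. The untreated hTNFtg libraries serve in both comparisons that involve them, as do the WT and infliximab libraries in theirs. The comparisons are therefore not independent of each other.

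Values are normalized counts, in which the reads on a gene were scaled by the same factor throughout a library and then rounded. hTNFtg replicate 1 was shallow, with about 613343 reads on genes where the other 8 libraries had between 3828939 and 9015557, and 1 of its reads was worth 6.23 normalized counts. A gene with 3 reads there stands at 18.7 normalized counts, against 1.60 to 3.31 elsewhere. The 9 fibroblast markers summed to between 31957 and 44407 normalized counts per library with none of them at 0. The 12 macrophage markers summed to between 203 and 736 in WT, between 3273 and 6924 in untreated hTNFtg and between 2134 and 4391 with infliximab. Their part in the results below was not tested. Among them Ptprc, which encodes CD45, was at 0, 3 and 0 in WT, at 31, 9 and 12 in hTNFtg and at 28, 8 and 22 with infliximab. The 8 endothelial markers summed to at most 12 and the 8 mast cell markers to at most 4 in any library. The 7 smooth muscle and pericyte markers summed to 532 to 636 in WT, 633 to 859 in hTNFtg and 728 to 835 with infliximab. They did not move together. Rgs5 measured 26, 31 and 25 in WT, 0, 3 and 4 in hTNFtg and 13, 21 and 9 with infliximab. Mcam went the other way, higher in every hTNFtg library, treated or not, than in every WT library. Cnn1, Cspg4, Notch3 and Des overlapped between WT and untreated hTNFtg. Myh11, the smooth muscle myosin, was at 0 in 8 libraries and at 1 in infliximab replicate 3. Their part was not tested either. The 8 hepatocyte markers summed to 829 in infliximab replicate 3, where the other 8 libraries had 18 to 61. What part this had in any value of that library, for all genes below, was not tested. In whole cultures, a change in the share of a cell type and a change in RNA per cell cannot be told apart.

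Promoter bases are shown for the inducible cyclooxygenase, the prostaglandin E2 synthase and the degrading enzyme, the genes that the values below turn on. The 250 bases before the RefSeq start site (GRCm38.p6) are printed 5′ to 3′ on the gene's strand, with a match to a searched motif in capitals. They lie at chr1:150099781-150100030 (plus strand), chr2:30903298-30903547 (minus strand) and chr8:56294302-56294551 (plus strand).
Ptgs2: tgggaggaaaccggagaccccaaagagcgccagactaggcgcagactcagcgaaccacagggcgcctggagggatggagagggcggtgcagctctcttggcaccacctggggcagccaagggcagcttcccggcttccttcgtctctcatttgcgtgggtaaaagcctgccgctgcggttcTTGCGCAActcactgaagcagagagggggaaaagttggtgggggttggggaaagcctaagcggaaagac
Ptges: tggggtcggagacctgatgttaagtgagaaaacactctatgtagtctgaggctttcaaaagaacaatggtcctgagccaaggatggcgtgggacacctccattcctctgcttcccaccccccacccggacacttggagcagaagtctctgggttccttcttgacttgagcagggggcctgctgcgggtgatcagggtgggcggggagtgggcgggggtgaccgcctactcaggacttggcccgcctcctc
Hpgd: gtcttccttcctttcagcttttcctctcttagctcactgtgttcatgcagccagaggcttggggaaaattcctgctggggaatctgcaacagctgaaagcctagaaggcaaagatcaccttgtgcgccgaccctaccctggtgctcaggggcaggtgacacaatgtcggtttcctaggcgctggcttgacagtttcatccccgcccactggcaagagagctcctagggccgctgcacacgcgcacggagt
RefSeq promoter windows were found for 9 of the 10 genes, and none for Ptgis. The motifs searched on both strands, from 250 bases before to 50 after the start, were TATAAA (the TATA box), TGACG (the short form of the cAMP response element), CACGTG (the E-box), TTGCGCAA (the palindrome of C/EBP factors), TGANTCA (the AP-1 site) and the NF-kB consensus. The capitals in the Ptgs2 promoter mark the C/EBP palindrome, whose first base stands 69 bases before the start. It occurs in 0.183% of 32851 promoter windows of this length. Ptgs2 also holds the E-box in gtcaccactaCGTCAcgtggagtcc just after its start, where the capitals mark the reverse complement of TGACG, which overlaps the E-box. Those motifs are common, in 7.15% and 20.8% of windows. Hpgd has TATAAA 5 bases after the annotated start in cggagtgggcTATAAAagctgctgcg, a motif that 13.6% of windows hold. The window of Ptges held no match to any of these motifs, and neither did those of Ptgs1, Ptger2, Ptger3 and Ptger4. That RefSeq start of Ptges, at 30903297, lies inside the gene span given below, whose 5′ end on the minus strand is at 30929863. Bases before that end were not searched. Elsewhere, Ptgds held the AP-1 site and the NF-kB consensus 35 and 22 bases before its start, in 7.81% and 4.51% of windows, and the second start of Pla2g4a a TATA box on the reverse strand 200 bases before it. A match of letters does not show that a factor binds there.

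The 3′ UTR of Ptgs2 carries AU-rich elements, the repeats through which its mRNA is known to be destabilised. A stretch with the most copies in 30 bases is shown, because RNA-binding proteins read such repeats. It lies at chr1:150105794-150105823 (GRCm38, plus strand), with ATTTA in capitals. Windows of this length with as many copies numbered 15, and such windows can overlap each other.
Ptgs2 AU-rich stretch: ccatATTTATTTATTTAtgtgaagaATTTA
These 30 bases hold 4 overlapping or separate copies of ATTTA. The whole 3′ UTR of 2445 bases in GENCODE M21 holds 14, a number that 2.97% of 21020 genes reach or exceed. Its density was 5.73 per kb, which 4.27% of the 18085 genes with a 3′ UTR of at least 200 bases reach. The 3′ UTR of Pla2g4a holds 4 in 443 bases, a number that 28% of genes reach. At 9.03 per kb its density is one that 0.791% reach. There were 6 in Ptger2, 5 in Ptger4 and 4 each in Hpgd and Ptger3, and 0 in Ptgs1, Ptges, Ptgis and Ptgds. Per kb these were 3.29 in Ptger2, 4.06 in Ptger4, 4.77 in Hpgd and 2.07 in Ptger3. Of genes, 19%, 11.8%, 7.4% and 37.8% reach these densities.

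In hTNFtg versus WT SFs, the mRNAs of Pla2g4a, both cyclooxygenases and Ptges stood higher and that of Hpgd stood lower. Ptgs2 was 8.10-fold higher by the ratio of means, Ptgs1 3.94-fold, Pla2g4a 2.65-fold and Ptges 2.27-fold, whereas Hpgd stood at 0.174 times its WT level. With infliximab, Hpgd was 3.61-fold higher than in untreated hTNFtg SFs, and none of the 4 synthesis genes passed the rule below. A gene passed the rule, which takes the study's own thresholds, at an unadjusted P under 0.05 in limma where its log2 fold change was 1 or more in either direction, and the Benjamini-Hochberg adjusted p over all genes tested is given beside it. Fold changes from limma are on the scale of log2(normalized count + 1), which understates changes of low genes. By this rule 5 of the 10 genes differed in hTNFtg versus WT, where 6.39% of all genes did and where 7.72% had an unadjusted P under 0.05. Of the 10, 4 were raised, where 3.35% of 28522 genes were, and 1 was lowered, where 3.04% were. At an adjusted p under 0.05 there were 2, Ptgs2 and Hpgd, against 0.48% of all genes. The median log2 fold change was 0.64 over the 10 genes and -0.0034 over all genes tested.

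**Figure D1:**
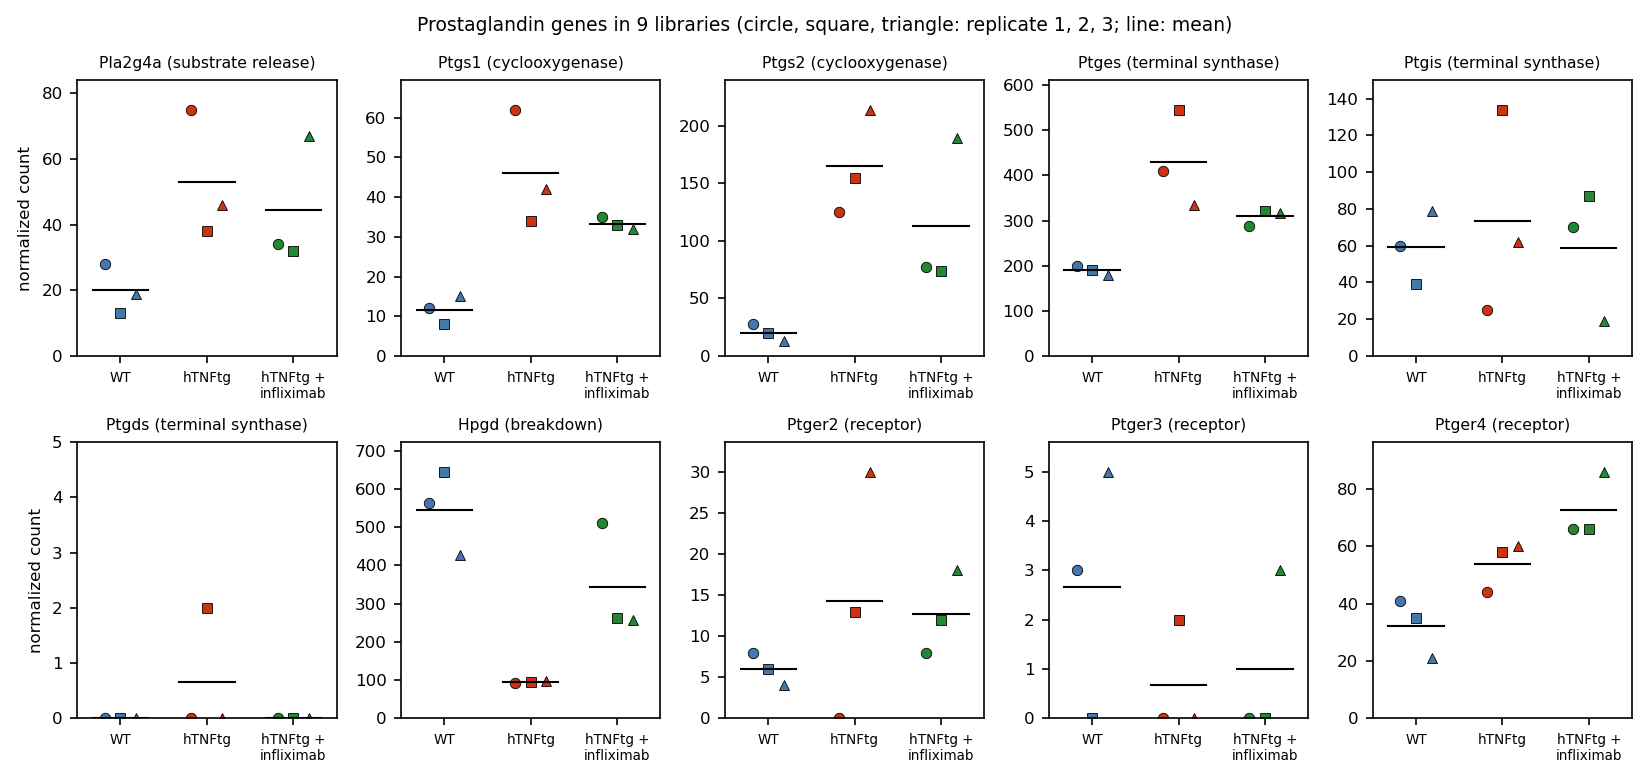
Normalized counts (linear axes from 0) of the 10 genes in the 9 libraries. Circles, squares and triangles are replicates 1, 2 and 3 of each group and the line is the group mean, and the 3 hTNFtg values of Hpgd, 93 to 98, lie below every other library while its infliximab values spread from 258 to 510.

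Pla2g4a (ENSMUSG00000056220, chr1:149829618-149961290, minus strand, mm10) releases the substrate. In replicates 1, 2 and 3 it measured 28, 13 and 19 normalized counts for WT, 75, 38 and 46 for untreated hTNFtg and 34, 32 and 67 with infliximab. Every hTNFtg library, treated or not, stood above every WT library, while the treated and untreated groups overlapped. In hTNFtg versus WT the log2 fold change was 1.37 (SE 0.48, limma adjusted p = 0.401), and without WT replicate 2 it was 1.11 and no longer past the rule. In infliximab versus untreated hTNFtg it was -0.28 (SE 0.44, 95% interval -1.22 to 0.67, limma adjusted p = 0.86). Against WT, infliximab-treated SFs stood 1.09 higher (SE 0.41, limma adjusted p = 0.307), a difference that missed the rule without WT replicate 2 (0.83), without WT replicate 3 (1.09, with a larger P) without infliximab replicate 3 (0.76) or with a pseudocount of 5 (0.96). An intronic 5S ribosomal RNA gene on the opposite strand, n-R5s219, was listed at 1 to 13 normalized counts. Whether its reads were also counted for Pla2g4a was not tested. With those counts taken off, the Pla2g4a values were 12 to 27 in WT, 33 to 63 in hTNFtg and 31 to 54 with infliximab. Pla2g4a lies 138.7 kb from Ptgs2, and the annotation places 3 genes between them, of which 0 are protein-coding.

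Ptgs1 (ENSMUSG00000047250, chr2:36230426-36252272, plus strand) encodes COX-1, the cyclooxygenase that most tissues make without a stimulus. It measured 12, 8 and 15 in WT, 62, 34 and 42 in untreated hTNFtg and 35, 33 and 32 with infliximab. The WT values lay apart from all 6 hTNFtg values, and the treated libraries, within 3 normalized counts of each other, reached into the lower end of the untreated ones. The log2 fold change was 1.89 in hTNFtg versus WT (SE 0.52, limma adjusted p = 0.208). With infliximab against untreated it was -0.41 (SE 0.41, 95% interval -1.30 to 0.48, limma adjusted p = 0.803), and against WT it was 1.48 (SE 0.37, limma adjusted p = 0.124). The value of 62 in hTNFtg replicate 1 stands for about 10 reads, with a counting interval of 29.9 to 114.5 normalized counts. Leaving that library out kept Ptgs1 past the rule.

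Ptgs2 (ENSMUSG00000032487, chr1:150100031-150108227, plus strand) encodes COX-2 and had the largest fold change in size between hTNFtg and WT of the 10 genes. It measured 28, 20 and 13 in WT, 125, 155 and 214 in untreated hTNFtg and 77, 74 and 189 with infliximab. WT lay apart from both hTNFtg groups, and infliximab replicates 1 and 2 stood below all untreated libraries while replicate 3 stood among them. The log2 fold change in hTNFtg versus WT was 2.98 (SE 0.40, 95% interval 2.10 to 3.87, limma adjusted p = 0.0101). The adjusted p was between 0.0632 and 0.25 when any 1 of the 6 libraries was left out, at log2 fold changes of 2.71 to 3.24. Infliximab against untreated gave -0.64 (SE 0.39, 95% interval -1.48 to 0.20, limma adjusted p = 0.803). Without infliximab replicate 3 the same difference was -1.08 and past the rule, at an adjusted p of 0.875. That replicate also held hepatocyte markers at 829 normalized counts in sum, where the other 8 libraries had 18 to 61, and the part of this in Ptgs2 was not tested. Treated SFs still stood above WT by 2.34 (SE 0.42, limma adjusted p = 0.0407). That adjusted p was between 0.115 and 0.344 with any 1 library left out.

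Ptges (ENSMUSG00000050737, chr2:30889471-30929863, minus strand) encodes the microsomal prostaglandin E synthase that acts with COX-2. It measured 200, 190 and 179 in WT, 411, 546 and 335 in untreated hTNFtg and 288, 322 and 318 with infliximab. The groups fell into an order with no overlap, WT lowest, infliximab between and untreated hTNFtg highest. The log2 fold change in hTNFtg versus WT was 1.15 (SE 0.29, limma adjusted p = 0.154), and without hTNFtg replicate 2 it was 0.97, just under the fold asked for. In infliximab versus untreated hTNFtg it was -0.45 (SE 0.28, 95% interval -1.06 to 0.16, limma adjusted p = 0.803). Against WT, treated SFs differed by 0.70 (SE 0.17, limma adjusted p = 0.107), an unadjusted P under the threshold at a fold under it.

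Hpgd (ENSMUSG00000031613, chr8:56294585-56321043, plus strand), the enzyme that oxidises prostaglandin E2 to an inactive product, moved the other way. It measured 564, 645 and 427 in WT, 93, 94 and 98 in untreated hTNFtg and 510, 262 and 258 with infliximab. The untreated hTNFtg libraries lay apart from all others, and infliximab replicate 1 reached into the WT range while replicates 2 and 3 stood between the groups. In hTNFtg versus WT it fell by 2.49 on the log2 scale (SE 0.28, 95% interval -3.11 to -1.86, limma adjusted p = 0.00598). The adjusted p lay between 0.0243 and 0.231 when a library was left out, and it stayed under 0.05 only without hTNFtg replicate 3. Treated SFs stood 1.77 above untreated hTNFtg SFs (SE 0.32, 95% interval 1.07 to 2.46, limma adjusted p = 0.681). The value kept to the rule with any library left out (1.44 to 1.93), and edgeR on approximate reads gave 1.88 with an adjusted p of 0.000114. Treated SFs and WT differed by -0.72 (SE 0.28, limma adjusted p = 0.342), under the fold asked for, and by -1.05, past it, without infliximab replicate 1. In hTNFtg replicate 1 the value of 93 stands for about 15 reads, with a counting interval of 52.3 to 154.1, which lies below the lowest WT and treated values.

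In infliximab versus untreated hTNFtg, Hpgd was the only one of the 10 genes past the rule, against 2.43% of 28540 genes in either direction and 1.49% raised. limma called 0 of the 10 at an adjusted p under 0.05 and 0 genes in all, with 1 of the 10 and 3.59% of all genes at an unadjusted P under 0.05, while edgeR called 1 of the 10 and 165 genes in all. Among the synthesis genes, all 4 differences were negative, from -0.28 to -0.64, none past the rule. Treated SFs against WT had 4 of 10 genes raised by the rule (Pla2g4a, Ptgs1, Ptgs2 and Ptger4), where 3.86% of 28243 genes were, and 0 lowered, where 2.95% were. In either direction 6.81% of genes passed, and 11.9% had an unadjusted P under 0.05. At an adjusted p under 0.05 there was 1, Ptgs2, against 0.74% of genes. The median log2 fold changes of the 10 genes were -0.28 against untreated hTNFtg and, over the 9 that could be tested, 0.94 against WT, where the medians over all genes were 0.

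**Figure D2:**
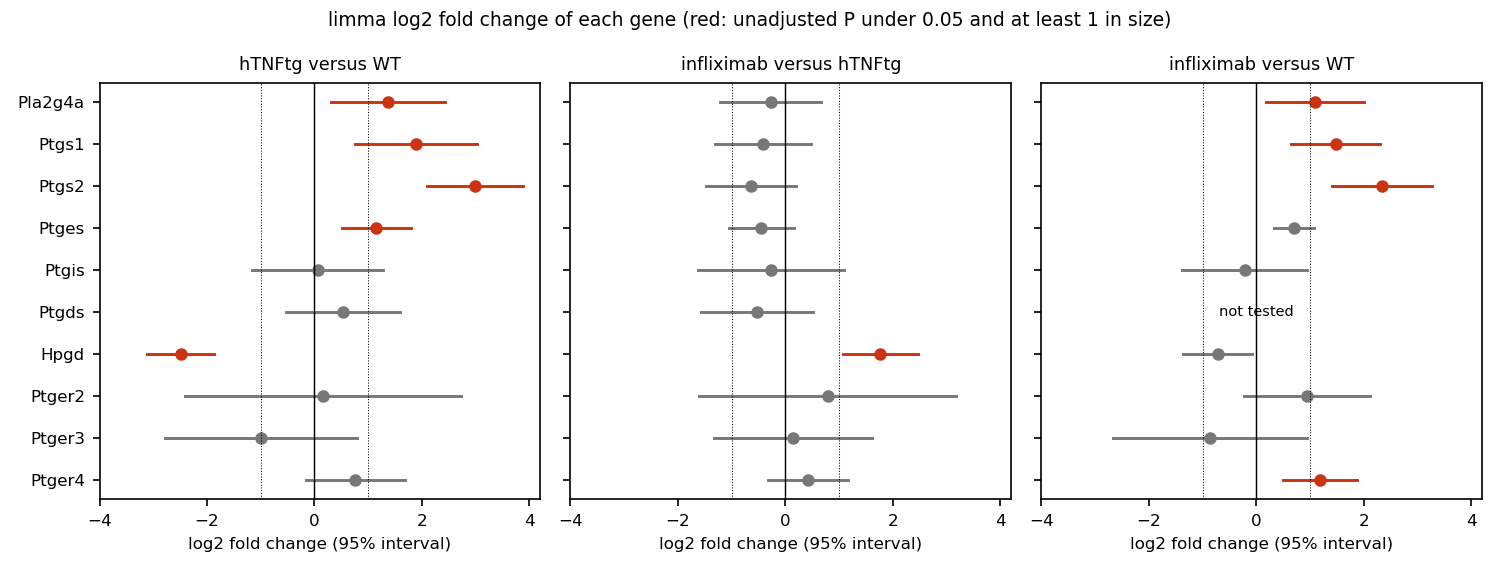
limma log2 fold change (x axis) of each gene with its 95% interval in the 3 comparisons, with dotted lines at a fold change of 1 in size and red marking genes past the rule. Ptgs2 and Hpgd lie farthest from 0 in hTNFtg versus WT, at 2.98 and -2.49, and Hpgd alone is red in infliximab versus hTNFtg.

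A ratio of 2 genes within a library does not depend on that library's scaling. Ptges to Hpgd, synthesis of prostaglandin E2 over its inactivation, was 0.355, 0.295 and 0.419 in WT, 4.42, 5.81 and 3.42 in untreated hTNFtg and 0.565, 1.23 and 1.23 with infliximab. The 3 groups did not overlap, with treated SFs between the others. Ptgs2 to Hpgd was 0.0304 to 0.0497 in WT, 1.34 to 2.18 in hTNFtg and 0.151 to 0.733 with infliximab, again without overlap. By contrast, Ptgs2 to Ptgs1, the inducible over the constitutive cyclooxygenase, was 2.33, 2.5 and 0.867 in WT, 2.02, 4.56 and 5.1 in hTNFtg and 2.2, 2.24 and 5.91 with infliximab. Those groups overlapped. These are ratios of normalized counts, not of molecules, and they are given as a description because the same values were tested above.

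**Figure D3:**
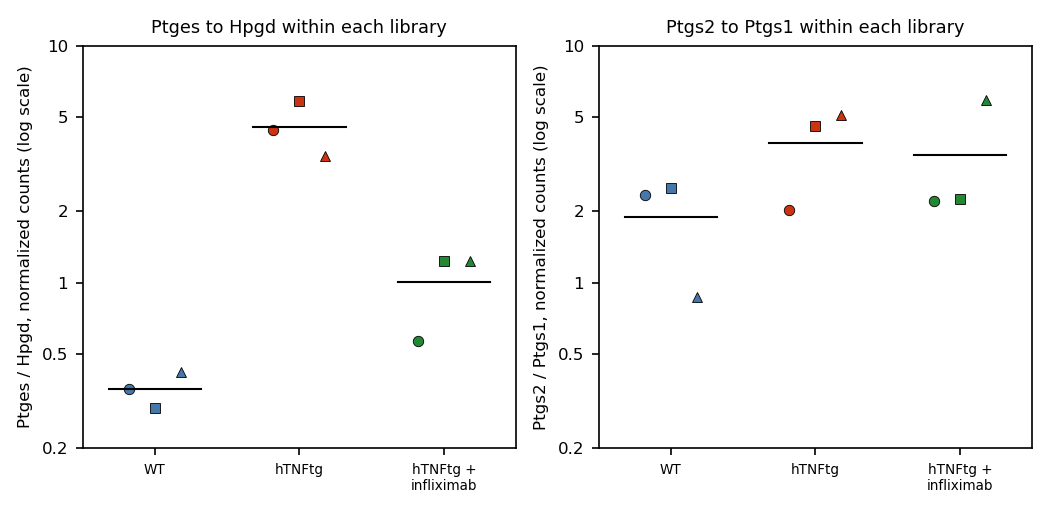
Ratio of Ptges to Hpgd (left) and of Ptgs2 to Ptgs1 (right) within each library on a log axis, with replicates as circles, squares and triangles and the arithmetic group mean as a line. Ptges to Hpgd is at most 0.419 in WT and at least 3.42 in untreated hTNFtg, whereas the groups overlap for Ptgs2 to Ptgs1.

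Ptger4 (ENSMUSG00000039942, chr15:5206661-5244187, minus strand) encodes EP4, a receptor that raises cAMP. It measured 41, 35 and 21 in WT, 44, 58 and 60 in untreated hTNFtg and 66, 66 and 86 with infliximab. The groups did not overlap and the treated SFs stood highest, unlike the synthesis genes. The value of 44 in hTNFtg replicate 1 stands for about 7 reads, with a counting interval of 17.5 to 89.8 that spans values of the other groups. Untreated hTNFtg and WT differed by 0.76 (SE 0.42, limma adjusted p = 0.726), and treated and untreated by 0.42 (SE 0.35, 95% interval -0.32 to 1.17, limma adjusted p = 0.803), neither past the rule. Treated SFs stood above WT by 1.18 (SE 0.31, limma adjusted p = 0.134), and by 0.91, under the fold asked for, without WT replicate 3. Ttc33 overlaps Ptger4 on the opposite strand with 82 shared exon bases and had 247 to 579 normalized counts. How the counting treated strand is not given in the sources used here, so some reads could belong to either.

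Ptger2 (ENSMUSG00000037759, chr14:44988195-45003820, plus strand) encodes EP2, which also raises cAMP. It measured 8, 6 and 4 in WT, 0, 13 and 30 in untreated hTNFtg and 8, 12 and 18 with infliximab. The groups overlapped in every comparison. In hTNFtg versus WT they did so only through the 0 of hTNFtg replicate 1. A count of 0 there allows up to 18.7 normalized counts, more than any WT value. The differences were 0.15 in hTNFtg versus WT (SE 1.17, limma adjusted p = 0.988), 0.79 in infliximab versus hTNFtg (SE 1.11, limma adjusted p = 0.845) and 0.94 in infliximab versus WT (SE 0.53, limma adjusted p = 0.528). Without hTNFtg replicate 1 the first was 1.61 and past the rule, at an adjusted p of 0.373, and edgeR gave 1.51, also past the rule, at an adjusted p of 0.414. The second turned to -0.67 without that library and was -0.44 by edgeR, and the group means, 12.7 with infliximab and 14.3 without, have the order of those values. Without infliximab replicate 1 the third was 1.21 and past the rule, at a limma adjusted p of 0.493. Ptger3 (ENSMUSG00000040016, chr3:157566892-157645888, plus strand) encodes EP3, which lowers cAMP. Its values were 3, 0 and 5 in WT, 0, 2 and 0 in hTNFtg and 0, 0 and 3 with infliximab. All groups overlapped, the rule was not passed in any comparison, and at this level the fitted differences, which depend on the pseudocount, are not read as folds.

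Of the other terminal synthases, Ptgds (ENSMUSG00000015090, chr2:25466709-25470046, minus strand) was at 0 in 8 libraries and at 2 in hTNFtg replicate 2. Every library was at or under 3 reads, so its fitted differences are not read as folds, and in infliximab versus WT it could not be tested. Ptgis (ENSMUSG00000017969, chr2:167191805-167240604, minus strand) was listed at 60, 39 and 79 in WT, 25, 134 and 62 in untreated hTNFtg and 70, 87 and 19 with infliximab. The groups overlapped in every comparison, with differences of 0.06, -0.27 and -0.21 and limma adjusted p of 0.998, 0.923 and 0.866. These counts cannot be assigned to Ptgis. The antisense gene Gm14291, which lies inside its span at chr2:167201576-167202799 on the plus strand, had 56, 37 and 78 normalized counts in WT, 25, 128 and 62 in hTNFtg and 65, 79 and 18 with infliximab. That is 90.8% to 100% of the Ptgis value in each library and leaves 0 to 8 normalized counts. The annotation shares 0 exon bases between these genes.

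**Figure D4:**
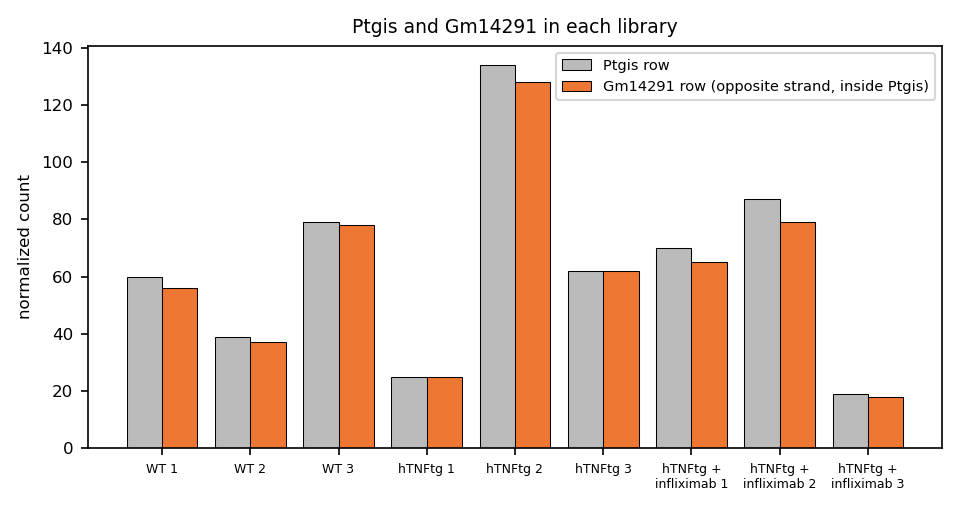
Normalized counts (bars from 0) listed for Ptgis, in grey, and for Gm14291 on the opposite strand inside it, in orange, in each of the 9 libraries. The bars of a library differ by 0 to 8 normalized counts.

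The remaining eicosanoid genes, a list of 64, were looked at for the same comparisons. In hTNFtg versus WT 6 of 55 tested were raised by the rule and 2 lowered, where 6.39% of all genes passed in either direction, with 2 at an adjusted p under 0.05, where 0.48% were, and a median log2 fold change of 0.11. edgeR called 5 at an adjusted p under 0.05 there (Slco2a1, Tbxas1, Alox5ap, Dpep2 and Fpr2), where it called 923 of all genes. In infliximab versus untreated hTNFtg it was 1 raised and 1 lowered of 55, near the 2.43% of all genes that passed, with a median of -0.0062. limma gave 2 of them at an unadjusted P under 0.05, where 3.59% of all genes had one. limma and edgeR each called 0 of them at an adjusted p under 0.05, where they called 0 and 165 of all genes. Treated SFs against WT had 8 raised and 2 lowered of 53, where 6.81% of all genes passed, with 3 at an adjusted p under 0.05, where 0.74% were, and a median of 0.14. edgeR called 5 at an adjusted p under 0.05 in that comparison (Slco2a1, Tbxas1, Alox5ap, Dpep2 and Dpep1), where it called 1322 of all genes.

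By role, Slco2a1 was the only one of the 5 genes of prostaglandin transport and breakdown that passed the rule in any comparison. It encodes the transporter that takes prostaglandins up into cells, ahead of their oxidation by Hpgd. Its values were 13, 16 and 21 in WT, 218, 221 and 206 in untreated hTNFtg and 103, 76 and 102 with infliximab. The 3 groups lay apart, with treated SFs between the others. The log2 fold change was 3.64 in hTNFtg versus WT (SE 0.35, limma adjusted p = 0.00164), -1.20 with infliximab (SE 0.29, limma adjusted p = 0.803) and 2.43 in infliximab versus WT (SE 0.29, limma adjusted p = 0.017). Slco2a1 and Hpgd thus differed from WT in opposite directions in untreated hTNFtg SFs, and each moved toward WT with infliximab. Ptgr1, which reduces prostaglandin metabolites further, had the highest mean of this role, 173.4 normalized counts, and did not pass.

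Among the 10 further prostanoid synthase genes, Tbxas1, thromboxane synthase, measured 0, 2 and 1 in WT, 12, 18 and 37 in hTNFtg and 25, 13 and 21 with infliximab. It was raised in hTNFtg versus WT (3.54, SE 0.86, limma adjusted p = 0.13) and in infliximab versus WT (3.46, SE 0.62, limma adjusted p = 0.0424), while the hTNFtg groups overlapped. Hpgds, the haematopoietic prostaglandin D synthase, was raised by the rule in infliximab versus WT (1.21, SE 0.44, limma adjusted p = 0.293). The other prostaglandin E synthase genes did not pass in hTNFtg versus WT: Ptges2 stood at means of 27.3 and 30.7 (-0.32, SE 0.58, limma adjusted p = 0.846) and Ptges3 at 253 and 238.3 (0.11, SE 0.37, limma adjusted p = 0.932). Cbr2, a carbonyl reductase, had the highest mean of the role, 364.2, and did not pass. Of the 7 further prostanoid receptor genes, Tbxa2r, the thromboxane receptor, measured 12, 9 and 10 in WT, 0, 2 and 1 in hTNFtg and 11, 6 and 12 with infliximab. It was lowered in hTNFtg versus WT (-2.63, SE 0.83, limma adjusted p = 0.295) and raised by the rule in infliximab versus hTNFtg (2.50, SE 0.89, limma adjusted p = 0.803), on few reads. Ptgfrn, a membrane protein that associates with the prostaglandin F2α receptor, had the highest mean, 136.9, and did not pass.

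Of the 22 further genes of phospholipase A2 and arachidonate release, 16 were tested in hTNFtg versus WT. Of these, 0 passed the rule in limma or in edgeR or had an unadjusted P under 0.05 in limma. Of all genes, 6.39% passed the rule in limma and 7.72% had such a P, and edgeR had 2410 past the rule. Between treated SFs and WT, Pla2g7, a secreted phospholipase that inactivates platelet-activating factor, passed at 1.92 (SE 0.73, adjusted p = 0.323), and Pla2g4e passed (adjusted p = 0.292) at 0 or 1 normalized counts per library, a level at which the difference is not read as a fold. Pla2g16 had the highest mean, 414.8, and did not pass. Of the 20 lipoxygenase and leukotriene genes, Alox5ap, which presents arachidonate to 5-lipoxygenase, measured 14, 33 and 17 in WT, 280, 97 and 144 in hTNFtg and 103, 71 and 154 with infliximab. It was raised in hTNFtg versus WT (2.92, SE 0.48, limma adjusted p = 0.0237) and in infliximab versus WT (2.33, SE 0.39, limma adjusted p = 0.0345). Dpep2, a dipeptidase of leukotriene metabolism, was raised in both (3.60 and 3.18, limma adjusted p of 0.159 and 0.109), and Dpep1 was lowered in both (-1.25 and -1.12, limma adjusted p of 0.372 and 0.201). Fpr2, a receptor for lipoxin A4, was raised in hTNFtg versus WT (2.80, SE 0.92, limma adjusted p = 0.339). Ltc4s passed there as well at 0, 3 and 6 normalized counts against 0 in every WT library (limma adjusted p = 0.635). Treated SFs also had Alox8 raised (1.17, limma adjusted p = 0.405) and Mgst2 lowered (-1.05, limma adjusted p = 0.125) against WT. Lta4h, which makes leukotriene B4, had the highest mean, 200.6, and did not pass. The summed macrophage markers given above, like every gene of this list and every synthesis gene called as raised in hTNFtg versus WT, stood higher on average in both hTNFtg groups than in WT, and their part was not tested.

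**Figure D5:**
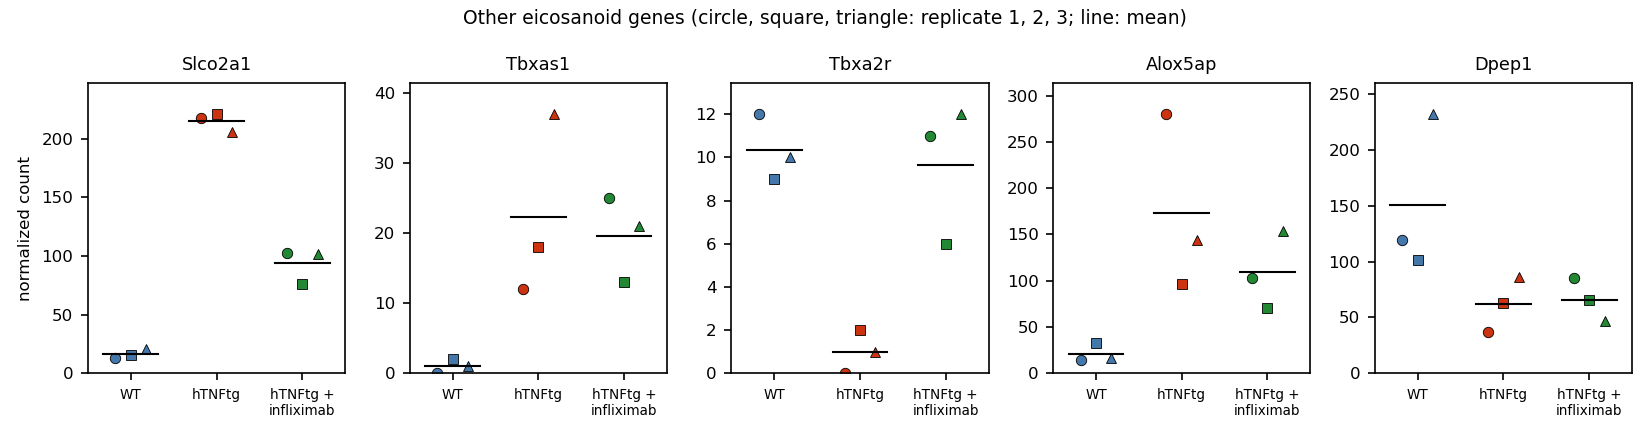
Normalized counts (linear axes from 0) of 5 other eicosanoid genes in the 9 libraries, with replicates as circles, squares and triangles and the group mean as a line. Slco2a1 separates all 3 groups (13 to 21, 206 to 221 and 76 to 103), and Tbxa2r is at 0 to 2 only in untreated hTNFtg.

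The mRNAs of proteins that bind AU-rich elements such as those of Ptgs2 formed a further list. limma called 0 of 9 genes of this list in any of the 3 comparisons, by the rule or at an adjusted p under 0.05, with 0, 0 and 2 at an unadjusted P under 0.05 in hTNFtg versus WT, infliximab versus hTNFtg and infliximab versus WT. Of all genes, 6.39%, 2.43% and 6.81% passed the rule and 7.72%, 3.59% and 11.9% had such a P. edgeR called 0, 0 and 1 at an adjusted p under 0.05, where it called 923, 165 and 1322 of all genes. The last was Elavl1, the stabilising factor HuR, at 150, 133 and 278 in WT, 112, 131 and 233 in hTNFtg and 92, 108 and 99 with infliximab (limma -0.83, SE 0.28, adjusted p = 0.251). Zfp36l2, a decay factor, had the highest mean, 406 normalized counts. Zfp36, tristetraprolin, measured 130, 134 and 168 in WT, 69, 158 and 327 in hTNFtg and 161, 173 and 134 with infliximab, with overlap throughout. EP2 and EP4 act through cAMP, and of 9 genes that cAMP induces 1 passed the rule against WT, of 8 tested in untreated hTNFtg and 9 tested with infliximab, where 6.39% and 6.81% of all genes passed. This was Dusp1, a phosphatase of MAP kinases. It measured 73, 37 and 27 in WT, 181, 213 and 144 in hTNFtg and 183, 115 and 240 with infliximab. Its log2 fold change was 2.05 in hTNFtg versus WT (SE 0.40, limma adjusted p = 0.056) and 2.01 in infliximab versus WT (SE 0.38, limma adjusted p = 0.0556), and edgeR called it at an adjusted p under 0.05 in both. With infliximab against untreated hTNFtg, limma and edgeR called 0 of the 9, and 0 had an unadjusted P under 0.05.

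The genes whose log2 levels followed each member most closely over the 9 libraries were taken from 11546 protein-coding genes with a mean of at least 10 normalized counts. All are Pearson correlations over libraries that fall into 3 groups, given as a description. Ptgs2 went with Ncam1 (r = 0.98), a cell adhesion molecule, at 110 to 155 normalized counts in WT, 548, 565 and 911 in hTNFtg and 358, 378 and 817 with infliximab. In Ncam1 as in Ptgs2, infliximab replicate 3 stood among the untreated libraries. Ccl8 and Stab1 followed, both at r = 0.98. Hpgd went with Ebf1 (r = 0.96), a transcription factor, at 334 to 364 in WT, 136 to 181 in hTNFtg and 205 to 336 with infliximab, and with Nkd1 (0.95) and Ppef1 (0.94). Nkd1, an antagonist of Wnt signalling, was at 0, 0 and 1 in untreated hTNFtg against 30 to 37 in WT and 6 to 10 with infliximab. Ptges went with the chemokine Ccl5, with Csnk1g1 and with Steap2, all at r = 0.96. Ptgs1 went with Gsap (0.98), Sirpb1c (0.97) and Ldlrad4 (0.97), and Pla2g4a with Ccbe1 (0.97), Slc38a6 (0.96) and Tpm1 (0.96). Ptger4 went with Slit2 (0.97), a guidance ligand that measured 25 to 53 in WT, 93 to 259 in hTNFtg and 245 to 388 with infliximab, followed by Arap1 and Tes at r = 0.96. Ptger2 went with Banp (0.98) and Gm7361 (0.97), which like it were lowest in hTNFtg replicate 1, and the counts listed for Ptgis, which cannot be assigned to it, with Ythdc2 (0.98), Smarcal1 and B4galt3 (0.91 each).

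Over all comparisons the groups of 3 libraries lay apart for 5 genes in the higher direction and 1 in the lower in hTNFtg versus WT, where 5.63% and 5.8% of all genes did. In infliximab versus untreated hTNFtg it was 2 higher (Hpgd and Ptger4) and 1 lower (Ptges), where 3.99% and 3.44% did. In infliximab versus WT it was 5 higher and 0 lower, where 7.14% and 7.07% did, the same 5 genes that lay higher in untreated hTNFtg (Pla2g4a, Ptgs1, Ptgs2, Ptges and Ptger4).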

How the data were processed

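RNA of cultured mouse SFs was read by 3′ mRNA sequencing (QuantSeq, Ion Proton) in 9 libraries. According to the methods, the authors mapped reads to mm10 with TopHat2, mapped the remainder with Bowtie2 at its very sensitive setting, counted reads per gene with GenomicRanges and normalized the counts; tool versions are not given in the sources used here. The values deposited by the authors and used here are a score per gene and library, counts normalized by 1 factor per library and rounded. For hTNFtg replicate 1 the deposited signal falls on whole multiples of 6.23 for 100% of its low values, so its reads were recovered. In the other libraries reads were estimated from the gaps and peaks in the rounded values, a step tested on simulated data, and are approximate. The 24 other per-sample columns (log2 and a further normalized form) and the authors' p-value, FDR and fold-change columns were not used.

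The 2 tables of 49548 genes hold the same values for untreated hTNFtg and were joined. limma 3.58.1 (R 4.3.3; lmFit, eBayes with trend) was run on log2(normalized count + 1) over the 6 libraries of a comparison and all genes above 0 in at least 1 of them, and p-values were adjusted by Benjamini-Hochberg over all of these. The study used DESeq on counts, and its thresholds were kept. edgeR 4.0.16 on approximate reads was an alternative. The others were a pseudocount of 5, genes with a mean of at least 10, rescaling by median ratios, array quality weights, a replicate block, all 9 libraries in 1 fit and leaving out each library. Counting intervals are exact 95% Poisson intervals and a count of 0 allows 3 reads; both cover counting error only. The fits were tested on simulated data. Comparisons of ratios carry no test.

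The 10 genes, the lists of related genes and the cell type markers were chosen with earlier results of these data known. All 10 genes are named. A gene of a list is named where it passes the rule in a comparison or has the highest mean of its role, and Zfp36, Elavl1, Ptges2 and Ptges3 were added after their values were seen. For likeness, the 3 closest genes of each member with a mean of at least 10 are named, Ccl5 among them, although the rule had set it aside as a marker of the study. One such gene of Ptger2 is not reported here. Promoters are from RefSeq (GRCm38.p6) and 3′ UTRs from GENCODE M21, in which all 10 genes have the same identifier and span as in the tables. The human TNF transgene is not analysed here.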

Additional observations from a re-analysis of the deposited data

How the results depend on the processing

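Over the 10 genes and 3 comparisons, 29 log2 fold changes were recomputed under 11 to 13 alternatives each, which gave 369 values, of which 335 kept their direction and their side of the rule, 7 lost the rule, 9 came to pass it and 18 changed sign.
In hTNFtg versus WT, the genes at an adjusted p under 0.05 numbered 2 (137 of all genes), and 4 with array quality weights (1004), 4 with all 9 libraries in 1 fit (381), 3 by edgeR (923) and 0 to 1 with a library left out (1 to 44). Those past the rule numbered 7 with array quality weights (3540 of all genes, against 1823), 6 by edgeR (2410) and 4 to 6 with a library left out (1382 to 2407). In infliximab versus hTNFtg, array quality weights gave 3 past the rule (2125 of all genes, against 693) and 1 at an adjusted p under 0.05 (65), edgeR gave 1 at an adjusted p (165), and leaving out a library gave 1 to 2 past the rule (418 to 1411 of all genes), 2 without infliximab replicate 3 (514). In infliximab versus WT, edgeR gave 3 at an adjusted p (1322 of all genes, against 209), and leaving out a library gave 2 to 6 past the rule (1681 to 2516 of all genes), 2 without WT replicate 3 (1681), and 0 at an adjusted p (0 to 1 of all genes), where 4 to 7 had an unadjusted P under 0.05. Deviations of same-numbered replicates correlated at -0.14 to 0.35 in hTNFtg versus WT and -0.15 to 0.10 in infliximab versus WT. Between different numbers these were -0.49 to 0.24 and -0.17 to 0.22. In infliximab versus hTNFtg, the same-numbered replicates all correlated positively, at 0.070 to 0.27, and those of different numbers at -0.26 to 0.13. Those 2 ranges overlap and do not settle whether these cultures were paired. The numbers were not taken as pairs. With the replicate block, genes past the rule stayed at 5, 1 and 4 (1659, 605 and 1698 of all genes), and limma called 0, 0 and 0 at an adjusted p, as it did of all genes, where 5, 1 and 5 had an unadjusted P under 0.05 in that fit.

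The changes of sign were in genes not called in that comparison. In hTNFtg versus WT they were Ptger3 with array quality weights (0.17), Ptgis without WT replicate 2 (-0.21) and without hTNFtg replicate 2 (-0.52; range over left-out libraries -0.52 to 0.67), and Ptger2 without WT replicate 3 (-0.068), hTNFtg replicate 2 (-0.29) and hTNFtg replicate 3 (-0.86; range -0.86 to 1.61). In infliximab versus hTNFtg they were Ptger3 with array quality weights (-0.85) and without hTNFtg replicate 1 (-0.13), hTNFtg replicate 3 (-0.13) and infliximab replicate 3 (-0.53; range -0.53 to 0.67), Ptger2 by edgeR (-0.44) and without hTNFtg replicate 1 (-0.67; range -0.67 to 1.80), Ptgis without hTNFtg replicate 2 (0.30) and infliximab replicate 3 (0.39; range -0.88 to 0.39), and Pla2g4a without hTNFtg replicate 1 (0.00038; range -0.61 to 0.00038). In infliximab versus WT it was Ptgis with array quality weights (0.14) and without WT replicate 3 (0.017) and infliximab replicate 3 (0.45; range -0.62 to 0.45). The cause was not tested. Array quality weights also brought Ptgis past the rule in hTNFtg versus WT (1.05) and infliximab versus hTNFtg (-1.03), and likewise Ptgds (1.28 and -1.36), which is above 0 in 1 library alone. In hTNFtg replicate 1, 3 reads amount to 18.7 normalized counts, above every WT value of Ptger2, Ptger3 and Ptgds. No leave-one-out value was possible where a gene was left with 0 in all libraries.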
